A study of Homo sapiens with 12 samples.

Results

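The genes described here are FYN, LYN, LCK, BLK, FGR, YES1 and SRC, which encode tyrosine kinases of the Src family, and CSK, which encodes the kinase that holds this family in check. They were chosen by name. All 24 probe sets that name them were taken, from 54675 probe sets on the arrays, and the 8 genes stand among 19775 genes measured. RNA came from Rec-1, SP-49 and Mino, 3 cultured lines of human mantle cell lymphoma, a cancer of B cells, so each line stands for 1 tumour. The treated groups, labelled GSI, were Rec-1, SP-49 and Mino cells given 1 µM compound E for 24 h. Compound E is an inhibitor of gamma-secretase, the protease that releases the active part of Notch receptors. The Mock groups were Rec-1, SP-49 and Mino cells given 0.1% DMSO for 24 h. Rec-1 and SP-49 grew with 10% serum and Mino with 15%, so a difference between Mino and another line cannot be told apart from a difference in serum. Each of the 6 groups had 2 arrays, whose number limits the precision, and the p-values rest on how far arrays of the same group spread, pooled over all 12 arrays, a spread that may be technical.

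Src-family kinases sit on the inner face of the cell membrane. In B cells LYN, BLK and FYN phosphorylate the signalling tails of the B-cell receptor, which then recruit the kinase SYK. In T cells LCK and FYN do the same for the T-cell receptor. CSK phosphorylates a tyrosine in the tail of these kinases and thereby closes them, and the phosphatase PTPRC (CD45) opens them again. All values below are on the log2 scale of the deposited table. A change is the mean of the GSI arrays minus the mean of the Mock arrays of the same line, and a change passed where limma's Benjamini-Hochberg adjusted p over all genes was under 0.05. The scale ran from 0.58 to 12.78 with a median of 1.99, and a value near or under that median cannot be told from background. Levels of different genes come from different probes and are not compared with each other. The arrays read RNA of whole cultures, so fewer cells with a transcript and less transcript per cell cannot be told apart.

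RefSeq (GRCh38.p14) lists 4 transcription starts for FYN on the minus strand, and the first and the fourth lie 114371 bases apart. The region before the first start is shown because FYN was the member whose RNA fell with the inhibitor, and a window at the fourth start is shown because it alone of the 4 held the letters TGGGAA, the core bound by RBPJ, the DNA-binding partner of Notch. Both strands were searched from 250 bases before to 50 after each start, and capitals mark the match.
FYN start 1, chr6:111873453-111873702, minus strand: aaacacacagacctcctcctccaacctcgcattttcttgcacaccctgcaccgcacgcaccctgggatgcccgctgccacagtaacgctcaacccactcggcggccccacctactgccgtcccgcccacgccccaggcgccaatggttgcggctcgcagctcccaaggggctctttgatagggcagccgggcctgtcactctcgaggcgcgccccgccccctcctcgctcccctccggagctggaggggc
FYN start 4, chr6:111759204-111759233, minus strand: agaagaaggcaaTGGGAAgaatcaaagaga
The match lies 140 bases before the fourth start. TGGGAA or its reverse complement TTCCCA was found in 24.0% of 35116 RefSeq promoters of the same length. It was in 4 of 10 start regions of the 5 members whose promoter entries were used, 1 each of FYN, LCK, FGR and CSK. LYN, BLK and SRC were not searched. The E-box CACGTG, a site bound by MYC, was in 0 of the 10, against 7.26% of all promoters. A match is a description of the sequence and shows no binding. The base composition also differed among the FYN starts, with 68.8% and 80.8% G or C before the first and the second start and 38.0% and 45.6% before the third and the fourth, against a median of 58.0% over all promoters.

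With the inhibitor, FYN RNA fell in Rec-1 and in SP-49, and none of the other 7 genes passed in any line. FYN is read best by probe set 210105_s_at, which has the highest mean of its 5 probe sets and stands for the gene. In Rec-1 it stood at 7.69 and 7.73 on the GSI arrays, against 8.61 and 8.66 on the Mock arrays. In SP-49 the GSI arrays read 7.31 and 7.20, against 8.10 and 8.01 on the Mock arrays. Both GSI arrays lay below both Mock arrays in either line. In Mino the GSI arrays at 5.28 and 5.10 overlapped the Mock arrays at 5.13 and 5.38, and all 4 Mino arrays lay far below those of the other lines.

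In Rec-1 the fall of FYN was 1.90-fold (change -0.93, 95% interval -1.21 to -0.64, limma adjusted p = 0.00233). In SP-49 it was 1.74-fold (change -0.80, 95% interval -1.09 to -0.51, limma adjusted p = 0.0450). In Mino the change was -0.07 (95% interval -0.35 to 0.22, limma adjusted p = 1.00), so in that line a fall of the size seen in Rec-1 lies outside the interval. The share of all genes that passed was 5.77% in Rec-1, 0.192% in SP-49 and 0% in Mino, and 1, 1 and 0 of the 8 members passed. The Rec-1 call held without any 1 array (adjusted p up to 0.0264). The SP-49 call was lost in 10 of 12 fits that left out 1 array, with the highest adjusted p, 0.393, without SP-49 Mock replicate 1, while the change itself stayed between -0.85 and -0.74.

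The inhibitor effect on FYN differed between Rec-1 and Mino by -0.86 (95% interval -1.27 to -0.46, limma adjusted p = 0.0484), and 1.43% of all genes passed this test of the difference. That call was lost in 11 of 12 fits without 1 array, with the highest adjusted p, 0.172, without Mino GSI replicate 1. The difference between SP-49 and Mino was -0.73 (95% interval -1.14 to -0.33, limma adjusted p = 0.397), where 0.0455% of all genes passed. Between Rec-1 and SP-49 it was -0.13 (95% interval -0.54 to 0.28, limma adjusted p = 0.862), where 0.556% of all genes passed, so the effects in these lines may differ by up to the ends of that interval. The comparisons with Mino share the Mino arrays.

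On the other FYN probe sets the changes had other sizes. Probe set 216033_s_at read 5.13 and 5.50 on Rec-1 GSI arrays, against 6.96 and 7.14 on Rec-1 Mock arrays, a fall of 3.33-fold (change -1.74, limma adjusted p = 0.000609 over all probe sets). In SP-49 the same probe set read 4.08 and 4.23 with GSI, against 4.83 and 4.87 with Mock, a change of -0.69 that did not pass (limma adjusted p = 0.289 over all probe sets). In Mino it read 3.25 and 3.20 with GSI, against 3.16 and 2.65 with Mock. On this probe set the effect in Rec-1 differed from that in Mino (difference -2.06, limma adjusted p = 0.00739), and that call held without any 1 array (adjusted p up to 0.0479).

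Probe set 212486_s_at was lower with the inhibitor in both Rec-1 and SP-49. It read 3.20 and 3.02 on SP-49 GSI arrays, against 4.93 and 4.80 on SP-49 Mock arrays, a fall of 3.38-fold (change -1.76, limma adjusted p = 0.00863 over all probe sets). In Rec-1 it read 4.46 and 4.29 with GSI, against 5.67 and 5.41 with Mock, a fall of 2.24-fold (change -1.16, limma adjusted p = 0.0103). These calls were lost in 3 and 2 of the 12 fits without 1 array, at adjusted p of up to 0.193 without SP-49 GSI replicate 2 and 0.102 without Rec-1 Mock replicate 1. In Mino it read 1.87 and 1.87 with GSI, against 2.82 and 2.09 with Mock, near the median of the scale, so both GSI arrays lay below both Mock arrays (change -0.58, unadjusted p = 0.0150, limma adjusted p = 0.949). On this probe set the effect in Rec-1 differed from that in Mino by -0.58, which did not pass (limma adjusted p = 0.485). The difference in effect between Rec-1 and SP-49 was 0.60 on this probe set and -1.05 on 216033_s_at, and neither passed (limma adjusted p = 0.593 and 0.184). Which exons each probe set covers is not given in the sources used here. Fitted as single probe sets, 3 of the 24 passed in Rec-1 and 1 in SP-49, all of them FYN, where 3.13% and 0.0494% of all probe sets passed. The 1 in SP-49 was 212486_s_at. In that fit 210105_s_at, which stands for the gene, did not pass in SP-49 (limma adjusted p = 0.0719 over all probe sets).

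The last pair of FYN probe sets was dim. Probe set 1559101_at ranged from 2.09 to 3.05 over the 12 arrays, with both SP-49 GSI arrays (2.09 and 2.11) below both SP-49 Mock arrays (2.26 and 2.88), a change of -0.47 that did not pass. Probe set 243006_at ranged from 1.04 to 1.82, under the median of the scale on all 12 arrays, and gives no level.

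**Figure D1:**
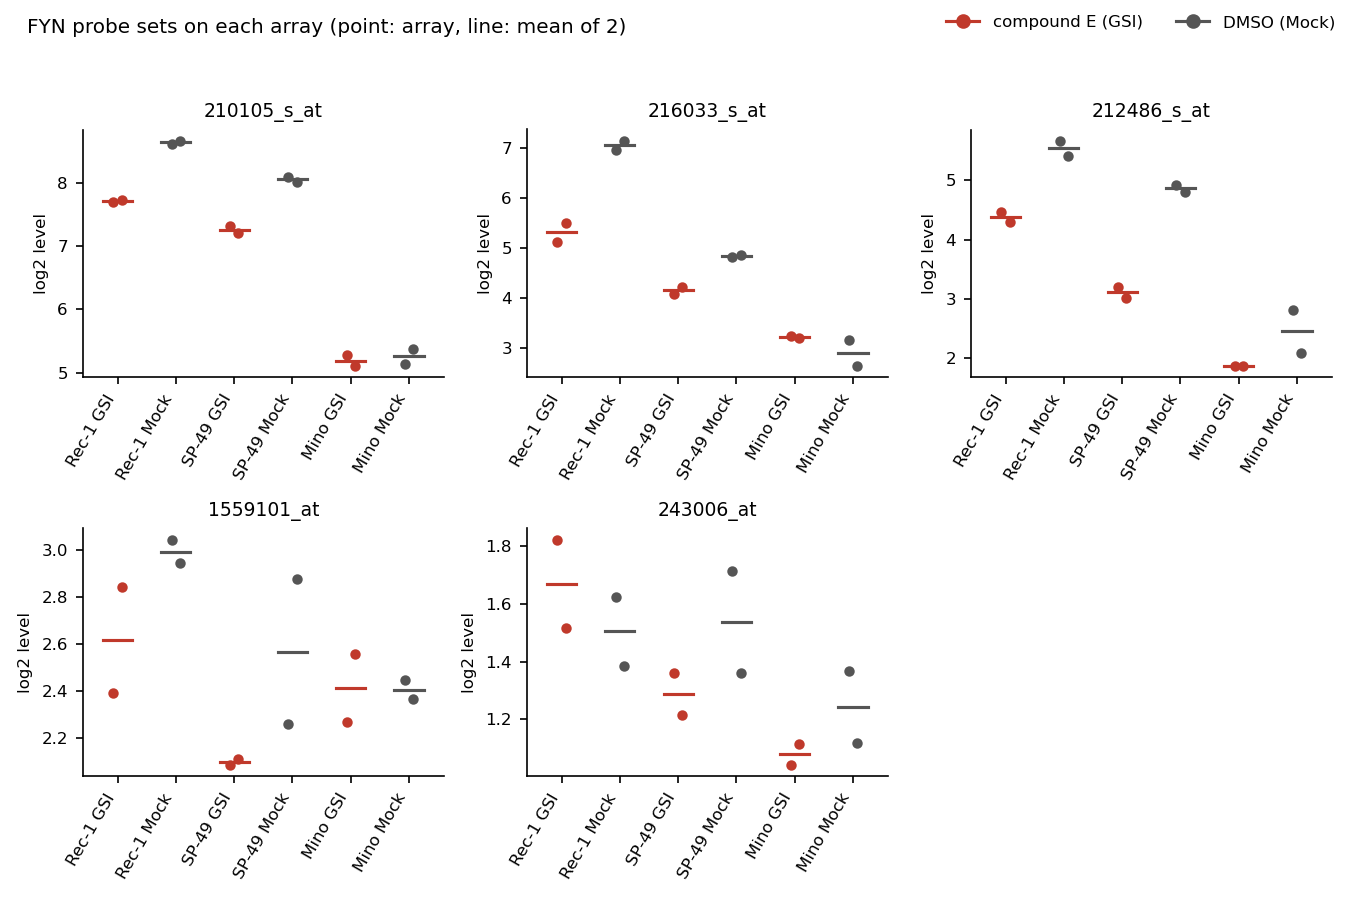
Level of each of the 5 FYN probe sets (log2, own axis per panel) on the 12 arrays, red for compound E and grey for DMSO, with a line at the mean of each group of 2. On 210105_s_at, 216033_s_at and 212486_s_at the GSI arrays of Rec-1 and SP-49 lie below their Mock arrays, and the Mino arrays lie lowest, while 1559101_at and 243006_at stay at 3.05 or under.

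BLK, a kinase found mainly in B cells, was next in SP-49. It read 5.47 and 5.42 on SP-49 GSI arrays, against 6.26 and 6.04 on SP-49 Mock arrays, so the groups did not overlap. The change was -0.71 (95% interval -1.01 to -0.40), and it did not pass in limma over all genes (adjusted p = 0.0926). Leaving out either Rec-1 GSI array took it past the threshold (adjusted p = 0.0471). Without SP-49 Mock replicate 1 its adjusted p was 0.554. In Rec-1 the GSI arrays read 4.96 and 4.67, against 5.09 and 5.22 with Mock, a change of -0.34 (adjusted p = 0.206). In Mino the order was the other way, with 4.45 and 4.48 for GSI against 4.33 and 4.21 for Mock (change 0.19, adjusted p = 1.00). The test of the difference between SP-49 and Mino gave -0.90 (95% interval -1.33 to -0.47, limma adjusted p = 0.316). Its second probe set, 210934_at, lay between 2.31 and 2.74 on all arrays.

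LYN, the main Src-family kinase of B cells, with both activating and inhibitory roles, did not pass in any line. It read 9.29 and 9.67 with GSI, against 9.56 and 9.71 with Mock, in Rec-1. In SP-49 it read 9.11 and 9.19 with GSI, against 9.02 and 9.10 with Mock. In Mino it read 8.26 and 7.99 with GSI, against 8.24 and 8.18 with Mock. The changes in Rec-1, SP-49 and Mino were -0.15, 0.09 and -0.08. Their 95% intervals were -0.49 to 0.18, -0.25 to 0.43 and -0.42 to 0.25. Changes of FYN's size in Rec-1 thus lie outside the intervals for LYN.

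LCK, the leading Src-family kinase of T cells, did not pass with the inhibitor in any line. On Rec-1 GSI arrays it read 4.18 and 3.35, against 2.86 and 3.50 on Rec-1 Mock arrays (change 0.58, 95% interval -0.06 to 1.23, limma adjusted p = 0.314), so the groups overlapped. In SP-49 it read 2.64 and 2.71 with GSI, against 2.56 and 1.84 with Mock, a change of 0.47 (95% interval -0.17 to 1.12, limma adjusted p = 0.732). In Mino, where LCK was highest, it read 6.20 and 6.13 with GSI, against 6.06 and 6.30 with Mock, a change of -0.01 (95% interval -0.66 to 0.63). The second LCK probe set, 204890_s_at, read 2.82 and 3.18 on Rec-1 GSI arrays, against 3.06 and 2.83 on Rec-1 Mock arrays.

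SRC and YES1, family members found in most cell types, and FGR, a kinase of myeloid cells, were dim in all groups. For SRC, the probe set that stands for the gene read 3.84 and 3.80 on SP-49 GSI arrays, against 3.76 and 3.29 on SP-49 Mock arrays (change 0.29, limma adjusted p = 0.741). In Rec-1 it read 2.65 and 3.14 with GSI, against 2.91 and 2.72 with Mock. In Mino it read 2.62 and 2.58 with GSI, against 2.96 and 2.99 with Mock (change -0.38, 95% interval -0.78 to 0.03). The other 6 SRC probe sets lay between 1.17 and 2.87.

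YES1 ranged from 1.11 to 2.62 on the probe set that stands for it. Its changes were -0.44 in Rec-1, -0.32 in SP-49 and 0.12 in Mino, none of which passed, and the intervals of all 3 held 0. FGR ranged from 1.43 to 1.96 over the 12 arrays, so all of its values lay under the median of the scale. Of the 24 probe sets of the members, 5 had no group mean at or above that median, namely 2 of SRC and 1 each of FYN, YES1 and FGR.

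CSK, the kinase that inactivates the family, has 1 probe set, which ranged from 7.22 to 7.86. It read 7.55 and 7.28 on Rec-1 GSI arrays, against 7.37 and 7.25 on Rec-1 Mock arrays, with a change of 0.11 (95% interval -0.18 to 0.39). In SP-49 it read 7.59 and 7.57 with GSI, against 7.86 and 7.76 with Mock, a change of -0.23 (95% interval -0.52 to 0.06, limma adjusted p = 0.694). In Mino it read 7.35 and 7.22 with GSI, against 7.32 and 7.33 with Mock.

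Over the 8 members, the median change was -0.15 in Rec-1, -0.22 in SP-49 and -0.03 in Mino, beside medians of 0.01, -0.02 and -0.00 over all genes. At an unadjusted p under 0.05, 2 members were lower in Rec-1 and 2 in SP-49, FYN and BLK in both lines, and 0 of 8 differed in Mino. For all genes no share at that unadjusted threshold is given here, so these counts cannot be set beside it. GSI arrays lay wholly apart from Mock arrays for 3 members in Rec-1, 7 in SP-49 and 2 in Mino, beside 45.3%, 42.5% and 33.1% of all genes, so in groups of 2 such separation was common.

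**Figure D2:**
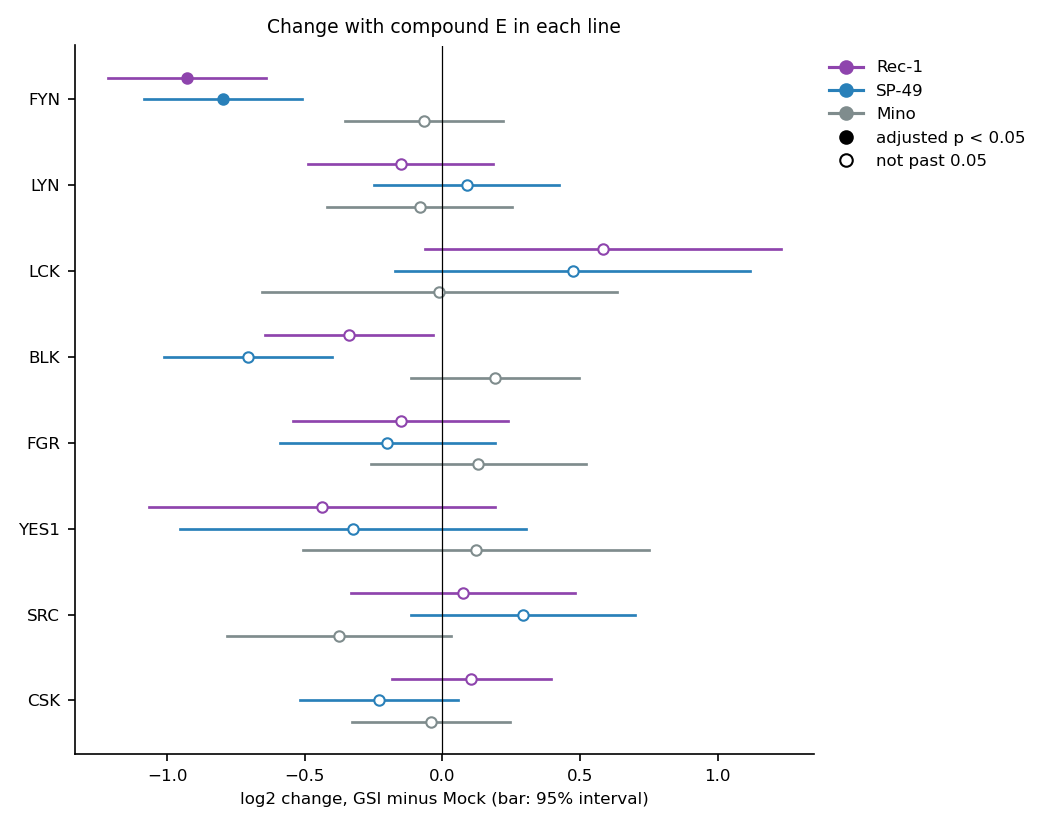
Change of each gene with compound E (GSI minus Mock, log2) in Rec-1, SP-49 and Mino, with bars for the 95% interval and filled points where the adjusted p was under 0.05. FYN in Rec-1 (-0.93) and in SP-49 (-0.80) are the filled points, and BLK in SP-49 (-0.71) is the next lowest.

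**Figure D3:**
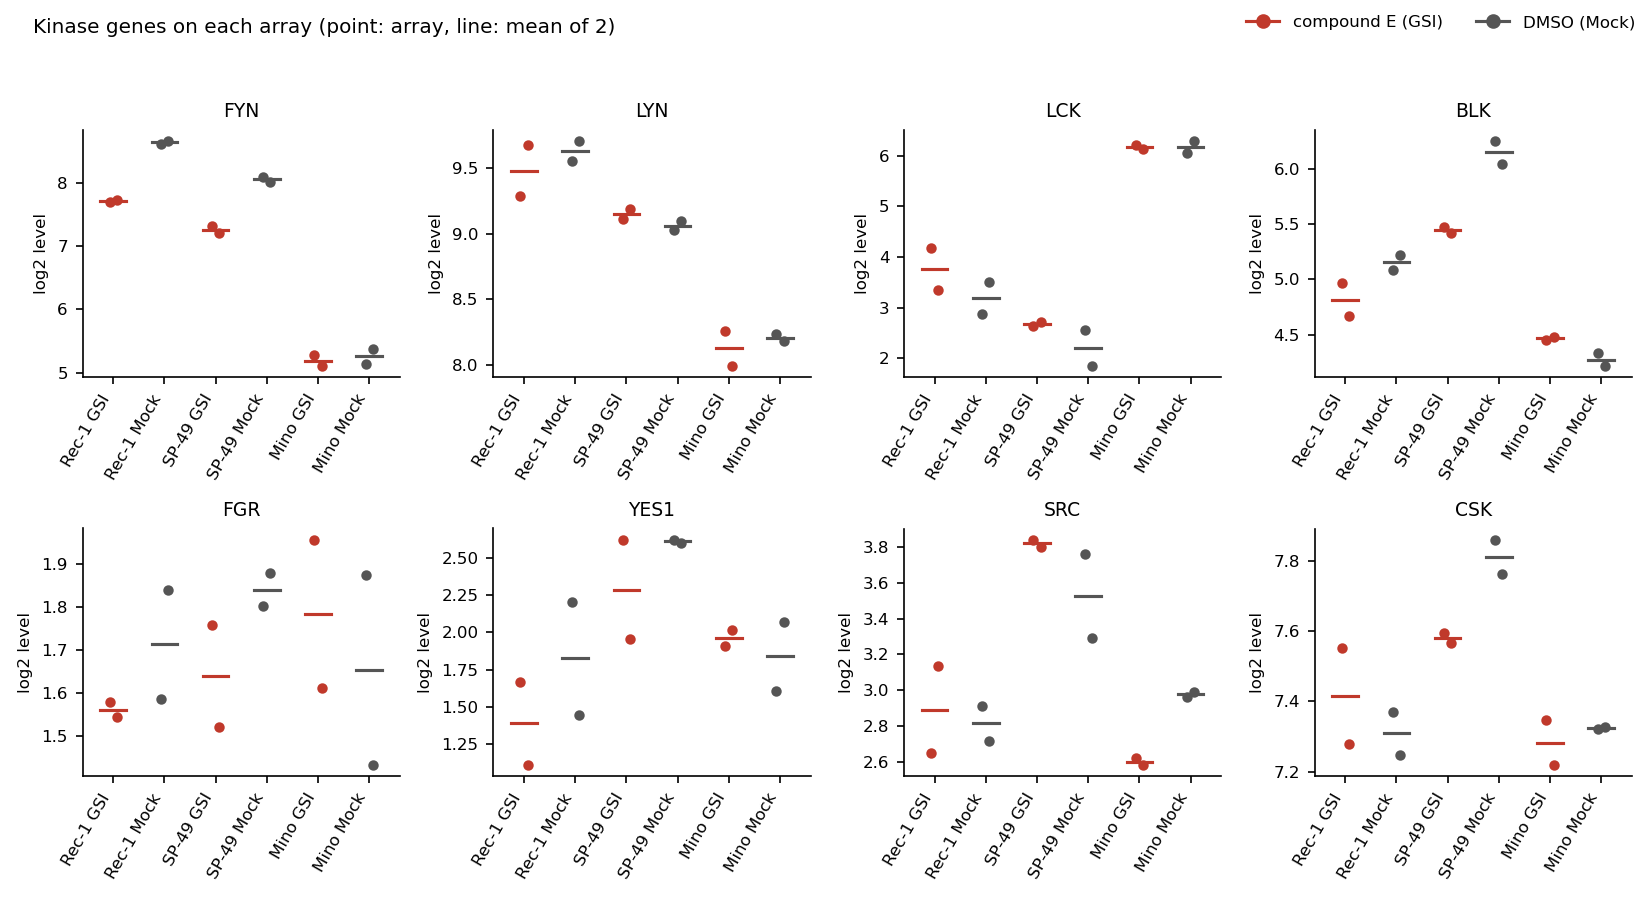
Level of the probe set that stands for each of the 8 genes (log2, own axis per panel) on the 12 arrays, red for compound E and grey for DMSO, with a line at the mean of each group of 2. FYN, LYN and BLK are lowest in Mino, LCK is highest in Mino, and FGR stays between 1.43 and 1.96.

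Without inhibitor, FYN was higher and LCK lower in both Rec-1 and SP-49 than in Mino, and these were the largest differences from Mino among the 8 genes. FYN was 10.4-fold higher in Rec-1 than in Mino (difference 3.38, 95% interval 3.10 to 3.67, limma adjusted p = 7.24e-09) and 6.95-fold higher in SP-49 than in Mino (difference 2.80, limma adjusted p = 4.11e-08). The mean of all 5 FYN probe sets, 2 of them dim, gave differences of 2.29 and 1.52. LCK was 7.99-fold lower in Rec-1 than in Mino (difference -3.0, limma adjusted p = 1.49e-05) and 15.7-fold lower in SP-49 than in Mino (difference -3.98, limma adjusted p = 1.54e-06). The Mock arrays behind LCK read 2.86 and 3.50 in Rec-1, 2.56 and 1.84 in SP-49, and 6.06 and 6.30 in Mino. The SP-49 values lie near or under the median of the scale, so that fold describes these readings and not the size of the RNA difference. The second LCK probe set gave 4.29-fold and 5.47-fold lower levels in Rec-1 and SP-49 than in Mino.

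LYN and BLK were also lower in Mino. LYN was 2.68-fold higher in Rec-1 than in Mino (limma adjusted p = 3.01e-05) and 1.80-fold higher in SP-49 than in Mino (limma adjusted p = 0.00132). Its other 2 probe sets gave 2.60-fold and 2.56-fold for Rec-1 and 2.46-fold and 2.41-fold for SP-49. BLK was 1.85-fold higher in Rec-1 than in Mino (limma adjusted p = 0.000520) and 3.68-fold higher in SP-49 than in Mino (limma adjusted p = 1.57e-06). Its Mock arrays read 5.09 and 5.22 in Rec-1, 6.26 and 6.04 in SP-49, and 4.33 and 4.21 in Mino, so the arrays of the 3 lines did not overlap and SP-49 stood highest. With its dim second probe set averaged in, the differences were 0.32 for Rec-1 and 0.86 for SP-49 (adjusted p = 0.0287 and 4.41e-05).

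Rec-1 and SP-49 also differed from each other in several members. FYN was 1.50-fold higher in Rec-1 than in SP-49 (difference 0.58, limma adjusted p = 0.00479), and this call held without any 1 array (adjusted p up to 0.0443). Probe set 216033_s_at of FYN gave a wider gap of 4.61-fold (difference 2.20, limma adjusted p = 3.50e-06 over all probe sets), beside 3.84-fold for SP-49 over Mino (difference 1.94). Probe set 212486_s_at gave 1.59-fold (difference 0.67, limma adjusted p = 0.0382 over all probe sets). That call did not hold in every fit without 1 array, where the difference ran from 0.54 to 0.80. BLK was 1.99-fold lower in Rec-1 than in SP-49 (limma adjusted p = 0.000177). LYN was 1.49-fold higher in Rec-1 than in SP-49 on 210754_s_at (limma adjusted p = 0.0140), but the mean of its 3 probe sets gave a difference of 0.25 (adjusted p = 0.160), and 3 of 12 fits without 1 array lost the call, the highest adjusted p being 0.101 without Rec-1 Mock replicate 2. LCK was higher in Rec-1 than in SP-49 (difference 0.98, limma adjusted p = 0.0259), where the SP-49 arrays lay near or under the median of the scale and no fold can be given, with an adjusted p of 0.253 without SP-49 Mock replicate 2 and 0.222 without Rec-1 Mock replicate 2.

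CSK and SRC were higher in SP-49 by smaller amounts. CSK was 1.40-fold higher in SP-49 than in Mino (limma adjusted p = 0.0164) and 1.42-fold lower in Rec-1 than in SP-49 (limma adjusted p = 0.0121). Those calls were lost in 4 and 2 of 12 fits without 1 array, with adjusted p of up to 0.113 without SP-49 Mock replicate 1 and 0.0905 without Rec-1 Mock replicate 2. For SRC, the level in SP-49 was 1.46-fold that in Mino (limma adjusted p = 0.0489), a call lost in 9 of 12 such fits (adjusted p up to 0.388, without SP-49 Mock replicate 1). SRC was 1.64-fold lower in Rec-1 than in SP-49 (limma adjusted p = 0.0118), and the mean of its 7 probe sets gave a difference of -0.00. The Mock levels of YES1 were 2.21 and 1.45 in Rec-1, 2.62 and 2.60 in SP-49, and 1.61 and 2.07 in Mino. Its differences of 0.77 for SP-49 over Mino and -0.79 for Rec-1 over SP-49 did not pass (limma adjusted p = 0.0728 and 0.0618), though each passed under 5 of 10 other settings, and leaving out 1 array took the adjusted p up to 0.352 (without Mino Mock replicate 1) and 0.446 (without Rec-1 Mock replicate 2). FGR did not pass between any lines. In all, 4 of 8 members passed between Rec-1 and Mino, 6 between SP-49 and Mino and 6 between Rec-1 and SP-49, beside 26.1%, 25.6% and 28.9% of all genes. These comparisons share their Mock arrays.

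**Figure D4:**
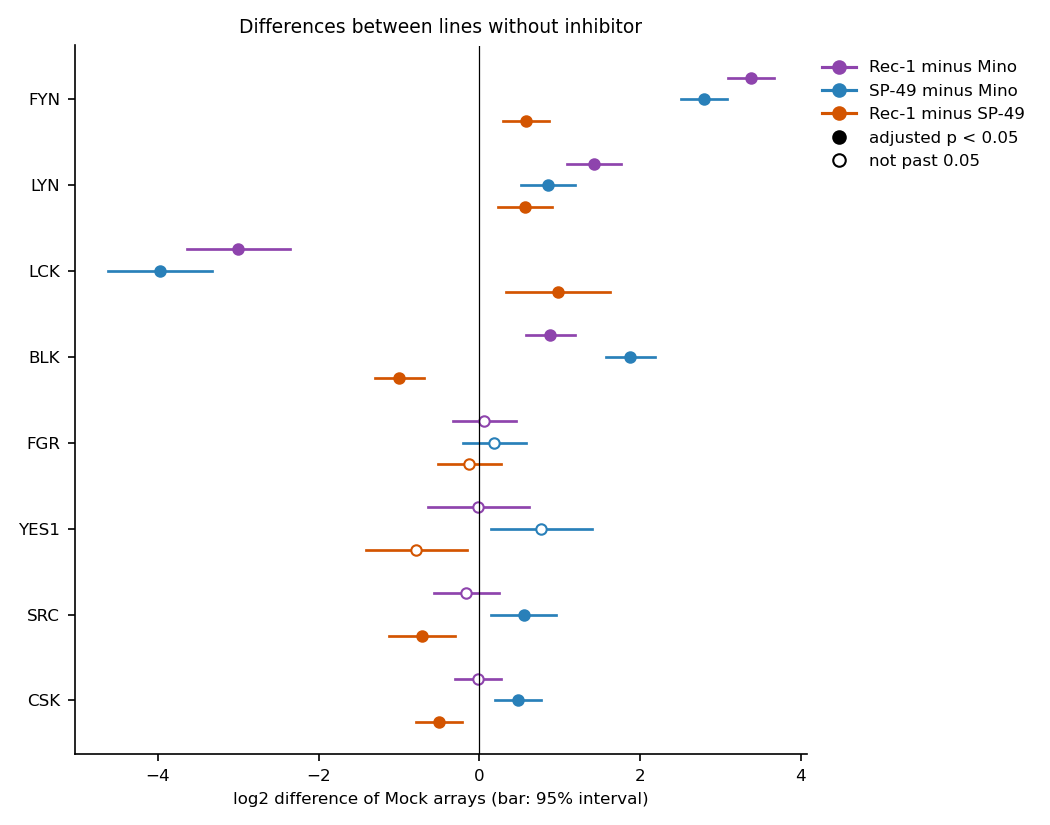
Difference of each gene between lines on the Mock arrays (log2), Rec-1 minus Mino, SP-49 minus Mino and Rec-1 minus SP-49, with bars for the 95% interval and filled points where the adjusted p was under 0.05. FYN lies farthest to the right (3.38 and 2.80 against Mino) and LCK farthest to the left (-3.0 and -3.98 against Mino).

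Both FYN and LCK are also abundant in T cells, so markers of other cells were read. All 7 listed T-cell markers were measured, and their summed level (log2) was 5.48 to 5.53 in Rec-1 GSI, 5.82 to 6.04 in Rec-1 Mock, 5.17 to 5.21 in SP-49 GSI, 4.98 to 5.02 in SP-49 Mock, 5.10 to 5.21 in Mino GSI and 5.04 to 5.06 in Mino Mock. In Rec-1 this sum was lower with GSI, as FYN was. In SP-49 the sum was higher with GSI, while FYN was lower. CD3D, a chain of the T-cell receptor complex, read 4.03 and 4.30 on Rec-1 GSI arrays and 4.81 and 4.79 on Rec-1 Mock arrays, while CD2 and CD28 stayed at 2.07 or under on all arrays. Of the T-cell markers, 3 stayed under 3 on all arrays, as did 5 of 5 NK-cell markers and the 6 of 7 myeloid markers that were measured. The B-cell genes MS4A1 (CD20), CD79A and PAX5 read 7.13 or more on all 12 arrays, and CD22, also of B cells, 3.71 to 5.66. CCND1, the cyclin activated in this lymphoma, read 8.27 or more, and CD5, a further marker of it, 2.23 to 4.82. SOX11, another marker of the disease, read 4.77 to 4.99 in Rec-1 against at least 7.40 in the other lines. What part other cells have in the kinase values was not tested.

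Across the 12 arrays, the 5 genes whose values ran most like those of FYN, of 5514 compared, were HS3ST3B1 (Pearson r = 0.991), SAR1A (0.990), PRICKLE1 (0.987), RILPL2 (0.987) and HAUS2 (0.980). These correlations are descriptions, and the arrays of a line share its genotype and serum. All 5 were higher in Rec-1 and in SP-49 than in Mino on the Mock arrays. Since the genes were picked by likeness to FYN over these same arrays, sharing its pattern over lines and groups is no separate finding. HS3ST3B1, an enzyme that sulfates heparan sulfate, read 6.94 and 6.58 on Rec-1 GSI arrays, against 7.85 and 7.75 on Rec-1 Mock arrays, and it was the gene of the 5 that passed in Rec-1 (change -1.05, limma adjusted p = 0.00522, and 0.0514 without Rec-1 Mock replicate 1). In SP-49 its change was -0.53 (limma adjusted p = 0.366). The changes of the other 4 ran from -0.46 to -0.20 in Rec-1 and from -0.33 to -0.14 in SP-49 without passing.

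Of 64 listed genes that act with the Src family, 61 were measured, and 6 were higher and 1 lower with the inhibitor in Rec-1, beside 5.77% of all genes. In SP-49 and in Mino, 0 passed in limma, and 10 and 6 had an unadjusted p under 0.05. No share of all genes at that unadjusted threshold is given here. These counts, and those of the lists below at that threshold, thus cannot be read as movement of the lists. Of 18 measured substrates and partners of the B-cell receptor, 5 rose in Rec-1, with a list median of 0.34 against 0.01 over all genes. They were CD79B, the signalling chain that LYN and FYN phosphorylate, SYK, the kinase recruited to it, PLCG2, the phospholipase downstream, VAV1, a signalling protein that SYK phosphorylates, and CD72, an inhibitory coreceptor.

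CD79B read 9.91 and 9.81 on Rec-1 GSI arrays, against 8.81 and 8.79 on Rec-1 Mock arrays (change 1.06, limma adjusted p = 0.000792), while the mean of its probe sets gave 0.29 (adjusted p = 0.171), so its probe sets did not move alike. SYK read 8.18 and 8.0 with GSI, against 7.47 and 7.51 with Mock in Rec-1 (change 0.60, limma adjusted p = 0.0201). PLCG2 rose by 0.64 (limma adjusted p = 0.0153, and a change of 0.38 with adjusted p = 0.0635 as the mean of its probe sets), VAV1 by 0.84 (limma adjusted p = 0.0152) and CD72 by 0.73 (limma adjusted p = 0.0139). Each of these 4 smaller calls was lost in 2 or 3 of 12 fits without 1 array, with the highest adjusted p between 0.111 and 0.132, without Rec-1 Mock replicate 1 for SYK and without Rec-1 Mock replicate 2 for the others. The changes of these 5 genes ran from -0.18 to 0.52 in SP-49 and from -0.46 to 0.04 in Mino. The effect in Rec-1 differed from that in Mino for CD79B by 1.07 and for VAV1 by 1.30 (limma adjusted p = 0.0165 and 0.0281), 2 of the 61 genes, where 1.43% of all genes passed. Those calls were lost in 5 and 7 of 12 fits without 1 array (adjusted p up to 0.0753 without Mino GSI replicate 1 for CD79B and 0.110 without Mino GSI replicate 2 for VAV1), and the mean of the CD79B probe sets gave a difference of 0.07. Between Rec-1 and SP-49, 0 of 61 passed in limma, with 16 at an unadjusted p under 0.05. Among 4 measured B-cell markers, CD79A and CD22 also belong to the list of B-cell receptor substrates and partners. The summed level (log2) of the 4 was higher in Rec-1 with the inhibitor, at 11.42 to 11.55 for GSI against 11.12 to 11.16 for Mock. Of these, MS4A1 and CD79A lay higher on both GSI arrays, while PAX5 (8.42 and 8.49 for GSI against 8.86 and 8.87 for Mock) and CD22 (5.36 and 5.27 for GSI against 5.50 and 5.66 for Mock) lay lower. The part of these markers in the changes was not tested.

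Of 20 measured regulators of the family, 0 passed in Rec-1, SP-49 or Mino by limma, where 4, 4 and 3 had an unadjusted p under 0.05. They include the phosphatases PTPRC and PTPN22, the CSK anchor PAG1 and the ubiquitin ligase CBL. Their medians were 0.16, -0.05 and -0.09. The 3 measured other Src-like kinases had changes from -0.09 to 0.12 in Rec-1 and from -0.03 to 0.63 in SP-49. Of 10 partners of FYN in the SLAM and T-cell pathways, 1 rose in Rec-1, the adaptor SKAP2, which binds FYN (change 0.58, limma adjusted p = 0.0262, and 0.148 without Rec-1 Mock replicate 2). The mean of its probe sets gave 0.28 (adjusted p = 0.113). Of 10 adhesion and cytoskeleton substrates, 1 fell in Rec-1. This was NEDD9, a docking protein phosphorylated by Src kinases, named here after its values were seen. It read 5.13 and 4.04 on GSI arrays, against 5.87 and 5.69 on Mock arrays (change -1.20, limma adjusted p = 0.0386). Its call was lost in 9 of 12 fits without 1 array, and without Rec-1 GSI replicate 2 the change was -0.65 (adjusted p = 0.179), the highest adjusted p being 0.190 without Rec-1 Mock replicate 1. The mean of its probe sets gave -0.38 (adjusted p = 0.197).

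**Figure D5:**
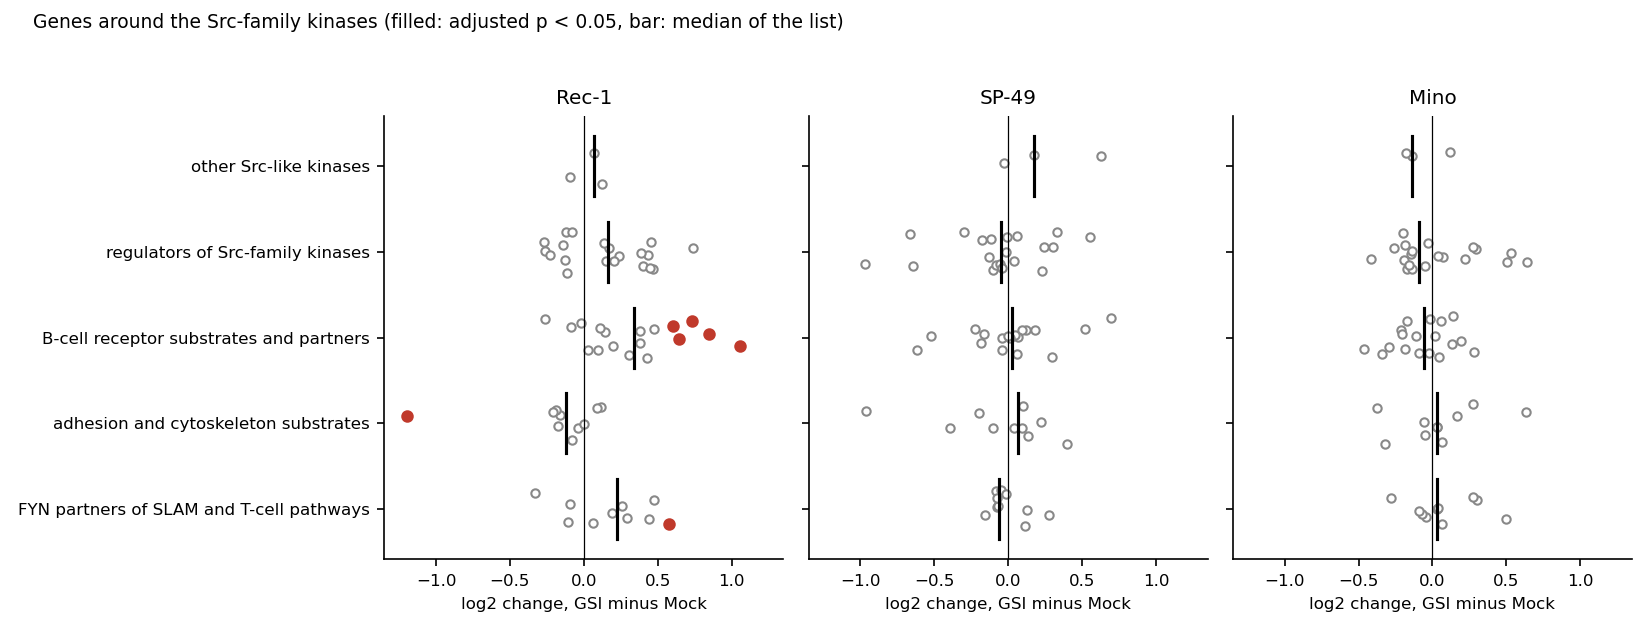
Change with compound E (GSI minus Mock, log2) of 61 genes that act with the Src-family kinases, by list, in Rec-1, SP-49 and Mino, with a bar at the median of each list and filled red points where the adjusted p was under 0.05. All 7 filled points are in Rec-1, 5 of them among B-cell receptor substrates and partners (median 0.34).

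Signs of RNA quality were read on each array. GAPDH is read by control probes at both ends of its RNA, and the 3' reading minus the 5' reading grows as RNA breaks down. That difference was 0.59 and 0.49 on Rec-1 GSI arrays, against 0.41 and 0.37 on Rec-1 Mock arrays. In SP-49 it was 0.35 and 0.44 with GSI, against 0.35 and 0.34 with Mock. In Mino it was 0.31 and 0.39 with GSI, against 0.26 and 0.25 with Mock. The same difference for ACTB was 2.29 and 1.92 with GSI, against 2.0 and 1.83 with Mock in Rec-1, so those arrays overlapped. In SP-49 it was 2.30 and 2.16 with GSI, against 2.29 and 2.36 with Mock, and in Mino 2.0 and 1.94 with GSI, against 1.73 and 1.79 with Mock. The narrowest spread over probe sets was found on Rec-1 GSI replicate 2 (SD 1.95) followed by SP-49 GSI replicate 2, against 2.01 to 2.05 on the other 10 arrays. Without both of these arrays, the FYN change was -0.95 in Rec-1 and -0.74 in SP-49 (limma adjusted p = 0.0144 and 0.263). The part of RNA quality in these changes was not tested.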

How the data were processed

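The 12 arrays measured RNA levels of 3 lines in 6 groups of 2. The deposited table held 1 log2 value per probe set and array, made by the authors; RMA and limma are named per the submitters' processing notes, without versions or order, and base 2 was inferred from the range of values. Of 54675 probe sets, 41097 named 1 gene in the platform annotation, 1801 several and 11777 none. Probe sets naming several genes were not used for gene values.

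Each of 19775 genes was read by the probe set of highest mean. The 6 group means were fitted over all 12 arrays, without covariates, by lmFit and eBayes of limma 3.58.1 (R 4.3.3), and p-values were adjusted by Benjamini-Hochberg over all genes, or over all probe sets where stated, with 0.05 as threshold. The fit was run on simulated data with the same spread for every gene, unlike the measured data, so that run checks the steps of the fit and not the calls above. Alternatives were another probe set rule, a filter on dim genes, 2 other scalings, an intensity trend with a robust prior, array weights, a replicate block, fits of the compared arrays alone and fits without 1 array or without the 2 arrays of narrowest range.

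The genes and lists were chosen with earlier results of these data known. All 8 kinases and their probe sets are named, with up to 6 passing list genes per line by smallest adjusted p and the 5 genes of highest Pearson r with FYN among genes at or above the median level and spanning at least 1 log2 unit. Between-line tests of the list genes were added after the values were seen. Promoter sequences are from RefSeq. Entries of the kinases on chromosome 8 were left out beforehand, while the 35116 promoters behind the shares above were not filtered this way. Entries of 5 of the 8 kinases were used. No promoter of LYN, BLK or SRC was searched.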

Additional observations from a re-analysis of the deposited data

Results flagged for a closer look

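The inhibitor effect on FYN differed between Rec-1 and Mino by -0.86 (limma adjusted p = 0.0484), with both GSI arrays below both Mock arrays in Rec-1 and overlapping arrays in Mino. FYN probe set 216033_s_at differed the same way by -2.06 (limma adjusted p = 0.00739). For CD79B the effect in Rec-1 exceeded that in Mino by 1.07 (limma adjusted p = 0.0165) and for VAV1 by 1.30 (limma adjusted p = 0.0281). These values were picked out because the test of the difference between the lines itself passed.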

How the results depend on the processing

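No change or difference that passed in the reported or the alternative fit turned direction between them. Of 2235 alternative values computed, 2040 were counted as unchanged. That number includes counts of passing genes, and changes that turned direction while passing in neither fit. LYN in Rec-1 was such a case, at -0.15 in the reported fit and up to 0.04 without 1 array. With only the arrays compared, 0 members passed in Rec-1 (FYN adjusted p = 0.0797), against 1 in the reported fit, and without 1 array the count was 1 to 1. In SP-49 the count was 0 after a further quantile normalization, with only the arrays compared, with the replicate block and without both arrays of narrowest range, 2 with array weights, and 0 to 2 without 1 array, where both Rec-1 GSI arrays gave 2 by adding BLK. Between the Mock arrays of Rec-1 and SP-49, 2 to 7 members passed without 1 array, with 2 without Rec-1 Mock replicate 2 and 3 without SP-49 Mock replicate 1. The FYN difference between Rec-1 and Mino lost its call at -0.86 when fitted over every probe set (limma adjusted p = 0.0733), with only the arrays compared (0.127) and with array weights (0.0725), at -0.78 after quantile normalization (0.0598) and at -0.88 without both narrow arrays (0.0909). Without 1 array it ran from -0.99 to -0.74. The cause of these shifts was not tested.

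Over all genes, same-numbered arrays did not deviate together, with correlations of 0.0941 in Rec-1, -0.0107 in SP-49 and 0.0457 in Mino, so the numbers were not taken as pairs. Genes at background enter these correlations, so they cannot decide whether expressed genes share such a deviation. With the replicate block, FYN kept its call in Rec-1 (-0.93, limma adjusted p = 0.0141) and lost it in SP-49 (-0.80, 0.139) and for the difference between Rec-1 and Mino (-0.86, 0.117). Over all genes, 1141 passed in Rec-1 and 38 in SP-49, against 868 and 16 with the block. With 2 arrays a group, small changes of dim genes such as YES1 and FGR could not be resolved.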
